A study of Mus musculus with 2 samples.

Results

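The interferon-gamma GTPases described here are 10 genes of the mouse: the guanylate-binding proteins Gbp2, Gbp3, Gbp4, Gbp5, Gbp6 and Gbp7, and the immunity-related GTPases Irgm1, Irgm2, Igtp (Irgm3) and Ifi47 (Irg-47). They were picked by name as a gene family, with earlier results of these data known, and all 10 are among the 13528 genes of the filtered table and in both library files. Immune cells carrying CD45 were taken from the liver of C57BL/6 mice, with an age of 10 weeks in the labels, and their polyadenylated transcripts were counted per cell as unique molecular identifiers (UMIs). The cells were captured in 2 libraries, each a pool of 2 genotypes. Among the mice, dnTGFβRII (TG) and IFN-γ ARE-Del-/- mice made up the first pool, while P40-/-IL-2Ra-/- and wild type (WT) mice made up the second. In TG mice, a model of primary biliary cholangitis, the mouse CD4 promoter drives a dominant negative human TGF-β receptor, so that T cells carry it. IFN-γ ARE-Del-/- mice lack an AU-rich element of the interferon-gamma transcript, an element of the kind that shortens the life of an RNA. P40-/-IL-2Ra-/- mice lack the p40 subunit shared by interleukin-12 and interleukin-23 and the alpha chain of the interleukin-2 receptor.

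The deposited cell table names 4647 TG cells of the first pool and 7282 WT cells of the second. The other 5379 cells of the first pool and 16829 of the second have no row in that table, so they stood for no genotype and were described only as cells without a row. The number of mice behind each genotype is not given in the sources used here. Each genotype came from 1 library, so no replicate spread could be had, and no test was made. In every comparison of TG with WT cells, the genotype and the library it was captured in cannot be told apart. Levels are UMIs of a gene per 1000000 UMIs (CPM) of a summed group of cells, and every interval is a 95% interval that covers counting error only. Total depth was 18498477 UMIs in TG cells and 22216379 in WT cells, and the median per cell was 3298 and 2653.5. The libraries shared 267 cell barcodes.

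Interferon gamma, secreted mainly by T, NKT and NK cells, binds a receptor of IFNGR1 and IFNGR2 and acts through the kinases JAK1 and JAK2. Its target genes often carry gamma-activated sites (GAS) or interferon-stimulated response elements (ISRE), and the latter are bound by the induced factor IRF1. Guanylate-binding proteins are large GTPases that coat and break the vacuoles of intracellular microbes and help to start inflammasome signalling. Igtp, Irgm1 and Irgm2 form the regulatory GMS branch of the immunity-related GTPases, which keeps the effector GKS branch off the membranes of the host, and Ifi47 is a GKS protein. The genes are induced by interferon gamma in most cell types, and many also respond to type I interferon.

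The 10 genes lie on 3 chromosomes of the genome build GRCm38 (mm10), the build the files use. On chromosome 3, Gbp5 (chr3:142493978-142522344), Gbp7 (chr3:142530342-142550149), Gbp3 (chr3:142560026-142573209) and Gbp2 (chr3:142620602-142638008) follow each other on the plus strand. On chromosome 5, Gbp4 (chr5:105115767-105139586) and Gbp6 (chr5:105270702-105293698) lie on the minus strand. On chromosome 11 lie Irgm1 (chr11:48861968-48871683, minus strand), Ifi47 (chr11:49076587-49096974), Igtp (chr11:58199556-58207591) and Irgm2 (chr11:58199618-58222782), the last 3 on the plus strand. The GENCODE models of Igtp and Irgm2 overlap on the same strand. Of the 50-base runs in the last 500 bases of each gene's longest transcript, none occurred in another gene's transcripts for 8 members. For Gbp6 77.8% occurred in the transcripts of Gm43302, and for Gbp4 6.43% occurred in those of Gbp6, so counts of the chromosome 5 pair may be split between near-identical transcripts and are uncertain.

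RefSeq promoters (250 bases before to 50 after the start, GRCm38.p6) were at hand for 8 of the 10 genes, and were read because the members respond to a shared signal. The GAS motif TTCNNNGAA, whose reverse complement has the same form, was in the promoter of 4 of the 8 genes (Gbp5, Gbp7, Igtp and Irgm2), and in 8.3% of all 32851 promoters. The core of the ISRE, GAAA followed by any 2 bases and again by GAAA, was searched on both strands. It was in 7 of the 8 and in 3.44% of all promoters. A promoter held both in 4 of the 8 genes and in 0.454% of all promoters. The 110 bases before the start are shown for the genes the results turn on, 5′ to 3′ on the strand of the gene, with GAS and ISRE matches in capitals.
Gbp2 (chr3:142620553-142620662, +): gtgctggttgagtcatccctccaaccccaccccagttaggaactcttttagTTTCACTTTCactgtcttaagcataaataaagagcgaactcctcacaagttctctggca
Gbp7 (chr3:142530226-142530335, +): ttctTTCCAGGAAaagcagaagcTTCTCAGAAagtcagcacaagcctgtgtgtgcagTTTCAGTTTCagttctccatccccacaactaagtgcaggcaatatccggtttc
Irgm1 (chr11:48871421-48871530, -): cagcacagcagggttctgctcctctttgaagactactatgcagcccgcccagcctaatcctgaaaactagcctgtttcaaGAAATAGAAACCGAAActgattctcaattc
Igtp (chr11:58199446-58199555, +): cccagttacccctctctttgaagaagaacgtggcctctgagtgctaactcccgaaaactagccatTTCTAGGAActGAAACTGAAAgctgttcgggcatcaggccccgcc
Irgm2 (chr11:58214867-58214976, +): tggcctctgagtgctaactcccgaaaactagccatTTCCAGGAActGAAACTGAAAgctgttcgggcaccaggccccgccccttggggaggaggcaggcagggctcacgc
Ifi47 (chr11:49076477-49076586, +): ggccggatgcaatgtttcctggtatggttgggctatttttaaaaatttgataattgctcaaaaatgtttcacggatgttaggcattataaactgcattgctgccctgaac
GAS and ISRE matches overlap nowhere in these windows. In Igtp and Irgm2 a GAS match stands just before an ISRE match, and the 300-base promoters of both genes share an identical run of 61 bases, against 13 or fewer for any other pair of members. Gbp7 holds 2 GAS matches and an ISRE match. Gbp2 and Irgm1 hold ISRE matches without GAS, with 2 overlapping ISRE matches in Irgm1. In Ifi47 neither motif was found in these letters.

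The cells were named by the authors in 14 types and 30 clusters, and 9 types had at least 50 cells in both genotypes. The names were checked against marker genes. Cells named B carried Cd79a at 3411 to 4502 CPM, and Ptprc, the gene of CD45, was at 1266 CPM in TG cells and 1172 CPM in WT cells. Over all cells the hepatocyte genes Alb and Apoa1 were at 0 UMIs in TG cells and at 29 and 10 UMIs in WT cells, and the endothelial gene Kdr at 25 and 63 UMIs. The erythroid gene Hbb-bs had 16 UMIs in TG cells and 1846 in WT cells. The markers went against the names in several places. Cells named monocyte carried the neutrophil genes S100a8 (21386 CPM in TG, 10788 in WT) and Csf3r (2862 and 2960 CPM), the second far above its 261 CPM in the cells named neutrophil of both genotypes, while Csf1r stood at 224 and 214 CPM, below its 629 and 398 CPM in macrophages. Cells named NK carried the T cell gene Cd3e at 1158 CPM in TG but at 97.8 CPM in WT. Cells named CD8aa T carried the NK gene Ncr1 at 192 CPM in TG and 229 in WT, and Trdc, a gene of γδ T cells, at 95.1 and 855 CPM. The 155 WT cells of cluster 17, named mature B, carried Cd3e at 609 CPM. The names are kept below as names only.

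**Figure D1:**
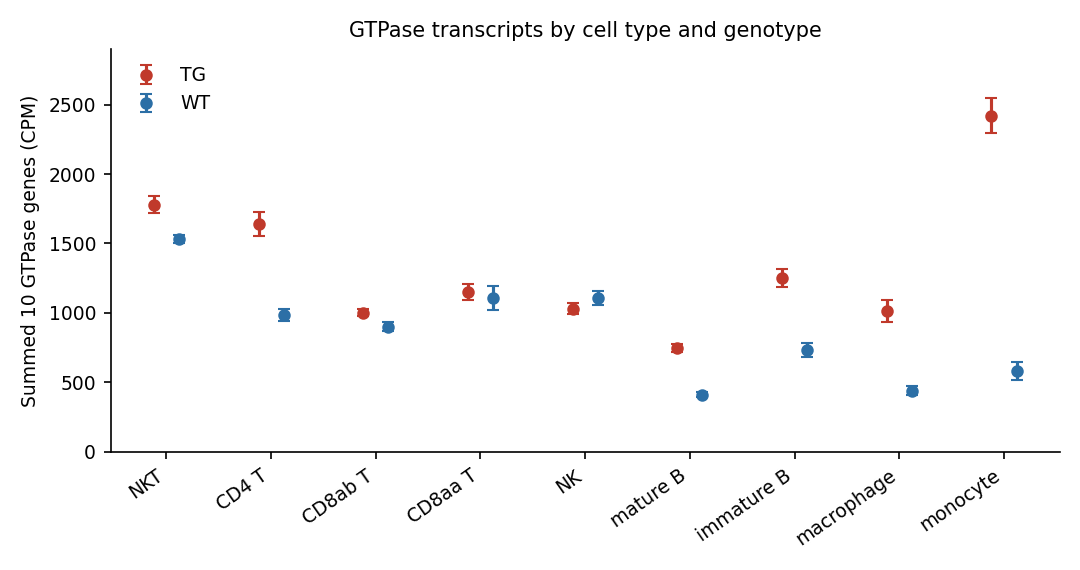
Level of the 10 GTPase genes together (CPM, linear axis from 0) in the 9 cell types with at least 50 cells in both genotypes, for TG (red) and WT (blue) cells, with exact Poisson 95% intervals as bars. Cells named monocyte stand at 2419 CPM in TG and 579.8 in WT, the widest gap, while NK and CD8aa T cells lie close together.

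Across all cells the 10 genes together held 20517 UMIs, or 1109 CPM (interval 1094 to 1124), in TG cells and 21365 UMIs, or 962 CPM (949 to 975), in WT cells. The log2 ratio of TG over WT was 0.21. NKT cells were 446 of the 4647 TG cells and 2232 of the 7282 WT cells. The part of this unlike mix of cell types in the values over all cells was not tested. Over all cells none of the 10 members was 2-fold higher or lower, where 4.99% of 12824 genes were higher and 4.21% lower. The differences within cell types ran wider. The sum was higher in TG cells, with an interval above 0, in 7 of the 9 types, it was lower with an interval below 0 in NK cells, and in CD8aa T cells the interval spanned 0. The log2 ratio was 2.06 (1.88 to 2.24) in cells named monocyte and 1.20 (1.04 to 1.37) in macrophages. In B cells it was 0.86 (0.76 to 0.95) for mature and 0.78 (0.65 to 0.91) for immature cells. Among T cells it ran from 0.74 (0.64 to 0.84) in CD4 T cells through 0.22 (0.16 to 0.28) in NKT and 0.15 (0.09 to 0.22) in CD8ab T cells to 0.06 (-0.08 to 0.20) in CD8aa T cells. In NK cells it was -0.10 (-0.19 to -0.01), and the interval spanned 0 under TMM scaling, a trimmed mean that resets the totals (-0.045, -0.13 to 0.045) and without Gbp4 (-0.011, -0.11 to 0.085), Irgm2 (-0.062, -0.15 to 0.030) or Ifi47 (-0.10, -0.21 to 0.0041). In CD8ab T cells it spanned 0 without Gbp7 (0.071, -0.0040 to 0.15). The 4 types with the lowest WT levels of the 9 were the 4 with the highest ratios, in which the WT level is the divisor. The genes encoding S100A8 and S100A9, abundant in the cells named monocyte and neutrophil, were also counted in other cells, and in mature B cells S100a8 reached 93.5 CPM in TG and 50.4 in WT. The part of such stray RNA in the levels of the GTPase genes was not tested.

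The order of cell types differed between the genotypes. In TG cells the sum was highest in cells named monocyte (2419 CPM, 2296 to 2547), followed by NKT (1780.3), CD4 T (1639), immature B (1251) and CD8aa T cells (1149.8), each above the next with an interval of the ratio that excluded 0. NK cells (1031 CPM), macrophages (1009.6) and CD8ab T cells (1001) could not be told apart at this depth, since the intervals of the ratios between neighbours spanned 0. Mature B cells (743) and neutrophils (309, from 54 cells and 104 UMIs) came last. In WT cells NKT cells were highest (1531 CPM, 1501 to 1561), and NK (1105) and CD8aa T cells (1104) followed with no difference between them at this depth. CD4 T (983), CD8ab T (899), γδ T (762) and immature B cells (729.6) came next, the last pair not told apart. Cells named monocyte (579.8), plasmacytoid dendritic cells (500), macrophages (439) and mature B cells (411) were lowest, and the last pair was not told apart. Cells named monocyte thus stood first of 10 types in TG and eighth of 11 in WT. Types with fewer than 50 cells in a genotype were given no ratio. Plasmacytoid dendritic cells stood at 542 CPM in 46 TG cells, γδ T cells at 2379 CPM in 17 TG cells with 50% of the UMIs in 3 cells, basophils at 871 CPM (45 TG cells) against 717 CPM (16 WT cells), and neutrophils at 98.0 CPM (9 UMIs) in 17 WT cells.

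**Figure D2:**
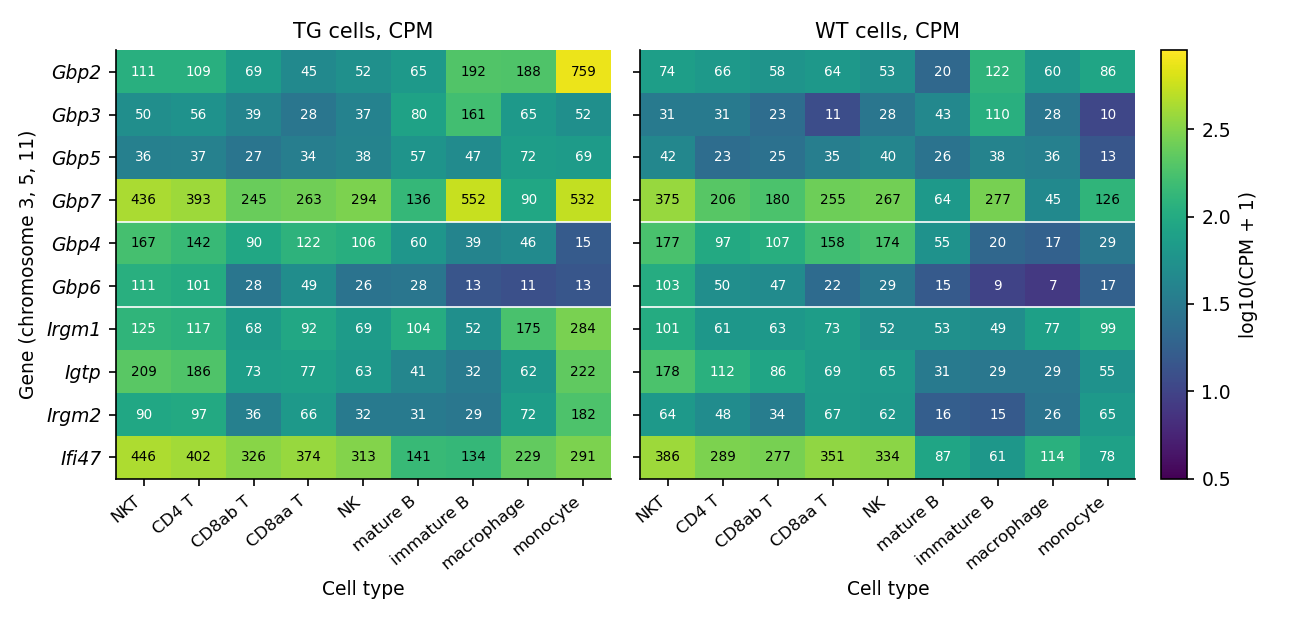
Level of each GTPase gene (rows, grouped by chromosome 3, 5 and 11) in 9 cell types (columns) of TG and WT cells, as CPM in the cell and as log10(CPM + 1) in the colour. Gbp4 and Gbp6 have their highest values in NKT cells of both genotypes, with an interval that meets the next type except for Gbp6 in WT. Gbp2 reaches 759 CPM in TG cells named monocyte against 86.1 CPM in WT.

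The members did not share 1 pattern over cell types. Gbp7 and Ifi47 held most UMIs, with 24.6% and 25.2% of the sum in TG cells and 22.3% and 26.1% in WT cells, so the sum follows them more than the others. Gbp4, Gbp6 and Ifi47 had the same highest type, since among types with at least 50 cells all 3 were highest in NKT cells of both genotypes, Gbp4 at 167 CPM in TG and 177 in WT, Gbp6 at 111 and 103, and Ifi47 at 446 and 386. The interval of the level in NKT cells met that of the second type in all of these but Gbp6 in WT. In WT, Gbp4 stood at 174 CPM in NK cells, and in TG, Gbp6 stood at 101 CPM in CD4 T cells. Of the WT types with at least 50 cells, Gbp4 was lowest in macrophages (17.1 CPM) and Gbp6 as well (7.14 CPM). Both intervals met those of immature B cells (19.7 and 8.85 CPM). Gbp3 was highest in immature B cells of both genotypes, at 161 CPM in TG and 110.1 in WT, with mature B cells second. Gbp2 stood at 122 CPM in WT immature B cells, its highest WT level among types with at least 50 cells, and at 192 CPM in those of TG. The WT interval met that of cells named monocyte (86.1 CPM). Igtp and Irgm2 were low in immature B cells (31.9 and 28.6 CPM in TG, 28.5 and 14.7 in WT), where Gbp7 stood at 552 CPM in TG and 277 in WT. Irgm1 was highest in plasmacytoid dendritic cells among WT types (109.5 CPM) and in cells named monocyte among TG types (284 CPM). In WT its interval met that of NKT cells (101 CPM). Over the 21 profiles of a cell type and genotype with at least 50 cells, the rank correlation (Spearman rho) of Gbp4 was 0.83 with Gbp6 and 0.83 with Ifi47, and that of Igtp with Irgm2 was 0.78. For Gbp3 it was 0.75 with Gbp5, while it was -0.17 for Gbp3 with Gbp6 and -0.16 for Gbp2 with Gbp4. These profiles share 2 libraries and their depth, Gbp4 shares sequence with Gbp6, and the gene models of Igtp and Irgm2 overlap. The part of that overlap in the counts was not tested, and the values are a description.

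**Figure D3:**
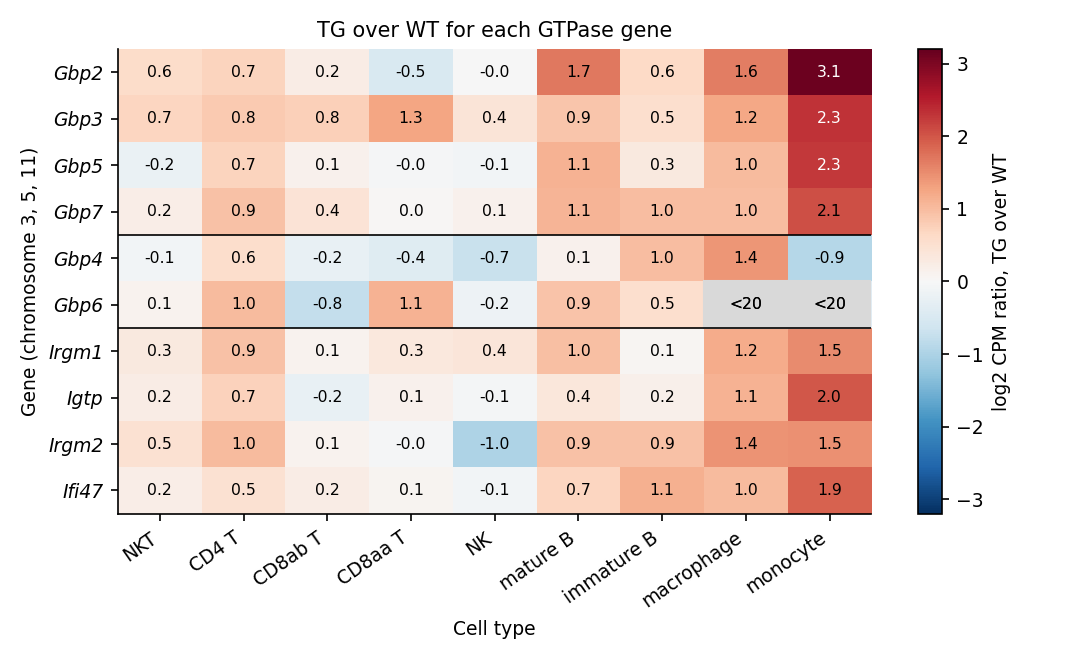
The log2 ratio of CPM in TG over WT cells (0.5 UMI added) for each GTPase gene (rows, chromosome 3, 5 and 11) in 9 cell types (columns), red for higher in TG, with pairs under 20 UMIs in grey. In cells named monocyte the 4 genes of chromosome 3 and the 4 of chromosome 11 are red, while Gbp4 is below 0.

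The widest difference was in cells named monocyte (204 TG and 258 WT cells, all of 1 cluster). Of the 9 members with at least 20 UMIs, 8 were at least 2-fold higher in TG and none 2-fold lower, against 4.73% of 5031 genes that were 2-fold higher and 4.95% that were lower. The median log2 ratio was 1.98 over the members and -0.08 over all genes tested. Gbp2, which binds vacuoles of bacteria and parasites, stood at 759 CPM (454 UMIs) in TG and 86.1 CPM (45 UMIs) in WT, a log2 ratio of 3.14 (2.70 to 3.62). Gbp7, a guanylate-binding protein tied to the oxidative burst, stood at 532 and 126 CPM, with a log2 ratio of 2.07 (1.69 to 2.48). In both genes the TG level lay several-fold above that of WT, and the intervals of the levels do not meet. Gbp5, which promotes inflammasome assembly, had 41 UMIs (68.5 CPM) in TG and 7 UMIs (13.4 CPM) in WT, and Gbp3 had 31 and 5 UMIs. Among the immunity-related GTPases, Igtp stood at 222 and 55.5 CPM, with a log2 ratio of 2.00 (1.41 to 2.64), and Irgm1 at 284 and 99.5 CPM, with 1.51 (1.06 to 1.99). Irgm2 stood at 182 and 65.1 CPM, and Ifi47 at 291 and 78.5 CPM. For the chromosome 5 pair no difference was resolved. Gbp4 had 9 UMIs (15.05 CPM) in TG and 15 (28.7 CPM) in WT, and Gbp6 had 8 and 9 UMIs, with intervals of the ratio that spanned 0. In TG 77.8% of the Gbp4 and 62.5% of the Gbp6 UMIs lay in 3 cells. Gbp6 was under the limit of 20 UMIs, too few to tell whether it differed. Leaving each member out of the sum in turn left the log2 ratio at 1.75 or more.

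In macrophages (109 TG and 261 WT cells) 8 of 9 members were at least 2-fold higher in TG, against 4.52% of 8249 genes (and 4.44% lower), with a median of 1.18 over the members and 0.08 over all genes. Gbp2 stood at 188 CPM in TG and 60.01 in WT, a log2 ratio of 1.65 (1.23 to 2.07), and Irgm2 at 71.9 and 26.4 CPM, with 1.44 (0.78 to 2.11). Gbp4 was higher here as well, at 45.7 and 17.1 CPM, with 1.42 (0.58 to 2.27). Irgm1 stood at 175 and 77.2 CPM and Ifi47 at 229 and 114 CPM. Gbp7 (1.00), Gbp5 (1.01) and Ifi47 (1.01) sat just at the limit of 1 on the log2 scale that marks a 2-fold difference, and 6 of the 9 were past it under TMM scaling. The WT class also held 80 cells of cluster 22, where the sum was 145 CPM, and fewer than 50 TG cells belonged to that cluster. Within cluster 15, which both genotypes share, the sum was 1248 CPM in 89 TG cells and 703 CPM in 158 WT cells, a log2 ratio of 0.83 (0.65 to 1.01), and 3 of 9 members were 2-fold higher against 4.54% of all genes. In the same cells Cd3e stood at 208 CPM in TG and 89.8 in WT, and Ncr1 at 49.7 and 7.36 CPM, so that T and NK markers moved with the sum. Their part in the difference was not tested. The 3 cells with most member UMIs held 14.7% of the sum in TG and 17.4% in WT macrophages.

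In mature B cells (1068 TG and 1494 WT cells) all 10 members had a higher level in TG, and 3 were at least 2-fold higher, Gbp2, Gbp5 and Gbp7, against 1.84% of 9852 genes (and 2.69% lower). The median log2 ratio was 0.93 over the members and -0.04 over all genes. Gbp2 stood at 65.2 CPM (219 UMIs) in TG and 20.3 CPM (73 UMIs) in WT, a log2 ratio of 1.68 (1.29 to 2.08). Gbp5 stood at 57.2 and 26.2 CPM, Gbp7 at 136 and 64.0 CPM, and Irgm1, the regulator of the GTPase family at host membranes, at 104 and 52.9 CPM, with a log2 ratio of 0.97 (0.72 to 1.24). Over the class as named, Gbp4 differed by no more than counting error, at 60.1 and 54.8 CPM with a log2 ratio of 0.13 (-0.16 to 0.42). The WT class includes the 155 cells of cluster 17, with the Cd3e level given above and a GTPase sum of 782 CPM. The B gate described below, which includes immature B cells, holds no cell with a Cd3 UMI. There Gbp4 stood at 52.1 CPM (43.8 to 61.5) in TG and 39.9 CPM (33.1 to 47.6) in WT cells. Igtp stood at 44.9 and 22.2 CPM in that gate, against 40.8 and 31.5 CPM in the class. Without cells that held UMIs of B as well as T lineage genes the log2 ratio of the class was 1.14. Within cluster 1 alone the sum was 705 CPM in 1028 TG cells and 315 CPM in 1329 WT cells, a log2 ratio of 1.16 (1.05 to 1.28), and 6 of 10 members were 2-fold higher against 2.2% of all genes. Cd3e was also higher in the TG cells of cluster 1, at 67.3 CPM (189 of 1028 cells with a UMI) against 32.5 CPM (79 of 1329), and its part within the cluster was not tested. In immature B cells (193 TG and 202 WT cells) 1 member was 2-fold higher, Ifi47 (134 CPM in TG, 61.0 in WT), against 2.68% of 8167 genes (and 2.94% lower), and the median log2 ratio was 0.60 over the members and -0.02 over all genes, with intervals that spanned 0 for Gbp5, Gbp6, Irgm1 and Igtp. Gbp7 stood just under the limit, at 675 UMIs in TG and 282 in WT, with a log2 ratio of 0.99 (0.79 to 1.20).

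In CD4 T cells (238 TG and 734 WT cells) all 10 members stood higher in TG, with a median log2 ratio of 0.78 against 0.09 over all genes. Gbp6 (101 CPM in TG, 49.8 in WT) and Irgm2 (97.1 and 47.8 CPM) were past 2-fold, against 5.53% of 8536 genes (and 2.89% lower), and neither was past it under TMM scaling. Gbp7 stood at 393 and 206 CPM, with a log2 ratio of 0.93 (0.72 to 1.15). Within cluster 6 the sum was 1393 CPM in 58 TG cells and 691 in 397 WT cells, a log2 ratio of 1.01 (0.80 to 1.23) with 5 of 8 members past 2-fold against 6.58% of all genes. Within cluster 9, of 132 TG and 272 WT cells, the log2 ratio was 0.45 (0.30 to 0.60) and no member was past 2-fold, against 3.64% of all genes. The clusters thus made up unlike parts of the class in each genotype. Cluster 21, with a sum of 2136 CPM, held 65 WT cells and fewer than 50 TG cells.

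In NKT cells no member was past 2-fold in either direction, where 4.22% of 10051 genes were 2-fold higher and 2.23% lower. Cluster 0 held 403 of the 446 TG and 1986 of the 2232 WT cells, and within it the log2 ratio of the sum was 0.39 (0.32 to 0.45), and 1 member was past 2-fold against 4.11% of all genes. The members above 0 with an interval that excluded it included Gbp3 (50.4 CPM in TG, 31.2 in WT, log2 ratio 0.69), Gbp2 (111 and 74.3 CPM, 0.58) and Irgm2 (90.1 and 63.9 CPM, 0.50). In CD8ab T cells no member was past 2-fold either, against 3.92% of genes higher and 3% lower, and the members went both ways. Here too the clusters differed, with 145 of 1020 TG and 363 of 819 WT cells in cluster 4, 115 TG and fewer than 50 WT cells in cluster 18, and 76 WT and fewer than 50 TG cells in cluster 23. Gbp3 (39.0 and 22.8 CPM, 0.77) and Gbp7 (245 and 180 CPM, 0.45) were higher in TG, while Gbp6 (27.7 and 47.3 CPM, -0.77, interval -1.11 to -0.43) and Gbp4 (90.1 and 107 CPM, -0.24) were lower. The sum was below that of WT in cluster 4 (log2 ratio -0.08, interval -0.23 to 0.07) and in cluster 12 (-0.12, -0.32 to 0.09), both with intervals that spanned 0, and above it in cluster 7 (0.26) and cluster 13 (0.37). In CD8aa T cells Gbp3 and Gbp6 were past 2-fold higher, against 4.86% of 8046 genes (and 2.47% lower), and rested on 6 and 12 UMIs in WT. These are the cells whose Trdc level differed between the genotypes.

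In NK cells no member was past 2-fold, against 3.81% of 9179 genes higher and 4.24% lower, but Irgm2 (31.5 CPM in TG, 62.3 in WT, log2 ratio -0.98, interval -1.44 to -0.53) and Gbp4 (106 and 174 CPM, -0.71, -0.96 to -0.45) were lower in TG. The cells named NK differ in kind between the genotypes: in cluster 3 Cd3e stood at 1608 CPM in TG and 122 in WT, and cluster 11, with 343 TG cells and Cd3e at 1401 CPM, held fewer than 50 WT cells. In cluster 8, where Cd3e was at 133 CPM in TG and 67.5 in WT, the sum was 808 CPM in TG and 939.8 in WT, a log2 ratio of -0.22 (-0.39 to -0.04). In cluster 3 it was -0.03 (-0.16 to 0.10). The NK gate described below holds no cell with a Cd3 UMI. There the sum stood at 806 CPM (720 to 899) in 104 TG cells and 1022 CPM (953 to 1095) in 318 WT cells, with intervals that do not meet.

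Levels also varied within a cell type. In WT NKT cells the sum was 1269 CPM in the 1986 cells of cluster 0, 2403 CPM in the 127 cells of cluster 19 and 4584 CPM (4364 to 4812) in the 119 cells of cluster 20. Igtp, the GMS protein of lipid droplets and endoplasmic reticulum, stood at 558 CPM in cluster 20. In WT CD4 T cells the sum was 691 CPM in cluster 6 and 2136 CPM in the 65 cells of cluster 21, and in TG CD8ab T cells it reached 1755 CPM in the 115 cells of cluster 18. Which genes the clusters were made from is not given in the sources used here, so the members may be among them, and these values are a description with no test. The 3 cells with most held 11.7% of the sum's UMIs in cluster 20, 10.6% in cluster 19, 25.4% in CD4 T cluster 21 and 6.79% in CD8ab T cluster 18.

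**Figure D4:**
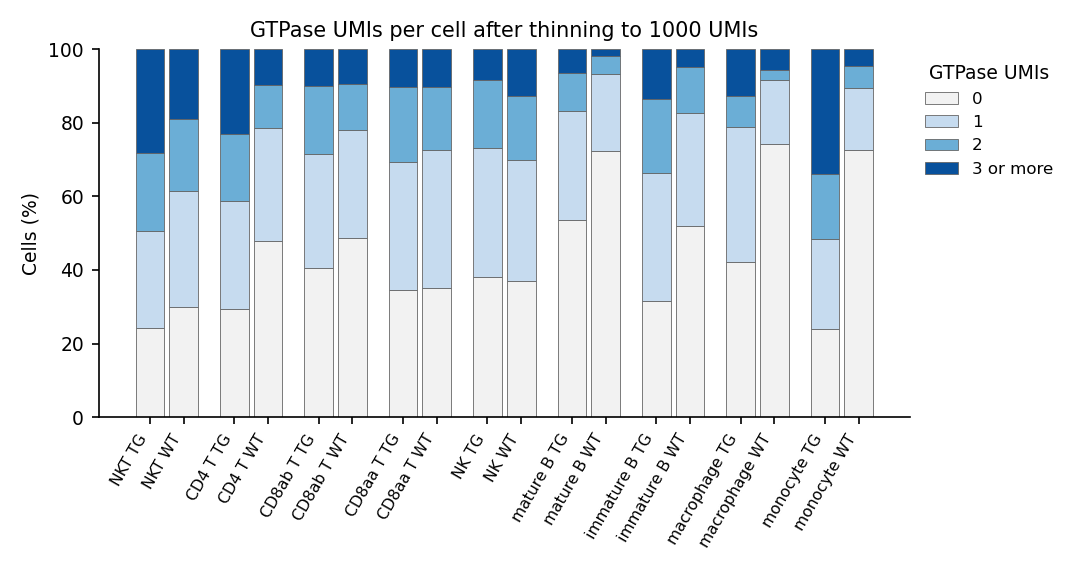
Share of cells (%) with 0, 1, 2 and 3 or more UMIs of the 10 GTPase genes after each cell was thinned to 1000 UMIs, in 9 cell types of TG and WT. Among cells named monocyte 33.8% of TG and 4.65% of WT cells hold 3 or more, in NK cells 8.30% and 12.7%, and in CD8aa T cells 10.2% and 10.3%.

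To set cells of unequal depth side by side, each cell was thinned to 1000 UMIs, and no named or gated cell was shallower. Cells named monocyte held at least 1 GTPase UMI in 76.0% (69.5 to 81.7) of TG and 27.5% (22.2 to 33.4) of WT cells, against 91.2% and 43.8% before thinning at median depths of 2614.5 and 1769.5 UMIs. At least 3 were found in 33.8% (27.4 to 40.8) of TG and 4.65% (2.43 to 7.98) of WT cells. In mature B cells at least 1 was found in 46.4% of TG and 27.8% of WT cells, against 76.2% and 46.1% unthinned, and in macrophages in 57.8% and 25.7%, against 90.8% and 57.5% unthinned. In NK cells the shares were 61.8% and 63.1%, with at least 3 UMIs in 8.30% (6.44 to 10.5) and 12.7% (10.2 to 15.6), and in CD8aa T cells 65.4% and 64.9%. No cell type lacks these genes by definition, and WT macrophages, cells named monocyte and mature B cells had the lowest of these shares. Before thinning, the median cell named monocyte held 5 GTPase UMIs in TG and 0 in WT.

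The cells without a row allow a comparison inside a library, where both sides share capture and sequencing. For it, cells were put into 5 gates by marker genes that include no GTPase gene. A B cell had at least 2 UMIs of Cd79a, Cd79b and Ms4a1, and a T cell at least 2 of the Cd3 genes with a Cd8 gene or Cd4 but not both. An NK cell had at least 2 of Ncr1 and Klrb1c, and a macrophage or monocyte at least 2 of Csf1r, Adgre1, Cd68 and Fcgr1. Cells of the B, NK and macrophage or monocyte gates held no Cd3 UMI. Those of the B, T and NK gates held no UMI of the 4 macrophage genes, and all gates but B held fewer than 2 B lineage UMIs. Of the named cells in the B gate 86.7% of TG and 88.6% of WT cells were called mature B by the authors. The CD4 T gate was mixed, since 34.1% of its named TG cells were NKT and 28.8% NK by name, and 57.7% of its WT cells were NKT. In the CD8 T gate 12.7% of the named TG cells were NK and 16.5% of the WT cells NKT by name. Of the 107 named TG cells in the macrophage or monocyte gate, 48 were macrophages, 32 monocytes and 16 plasmacytoid dendritic cells by name. Of its 236 WT cells, 125, 26 and 82 carried these names. The gate thus held few of the 204 TG and 258 WT cells named monocyte. Cells without a row have no name. The part that a different mix of macrophages and monocytes has in the ratios of this gate was not tested. The same holds for a different mix of T, NKT and NK cells in the T cell gates.

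**Figure D5:**
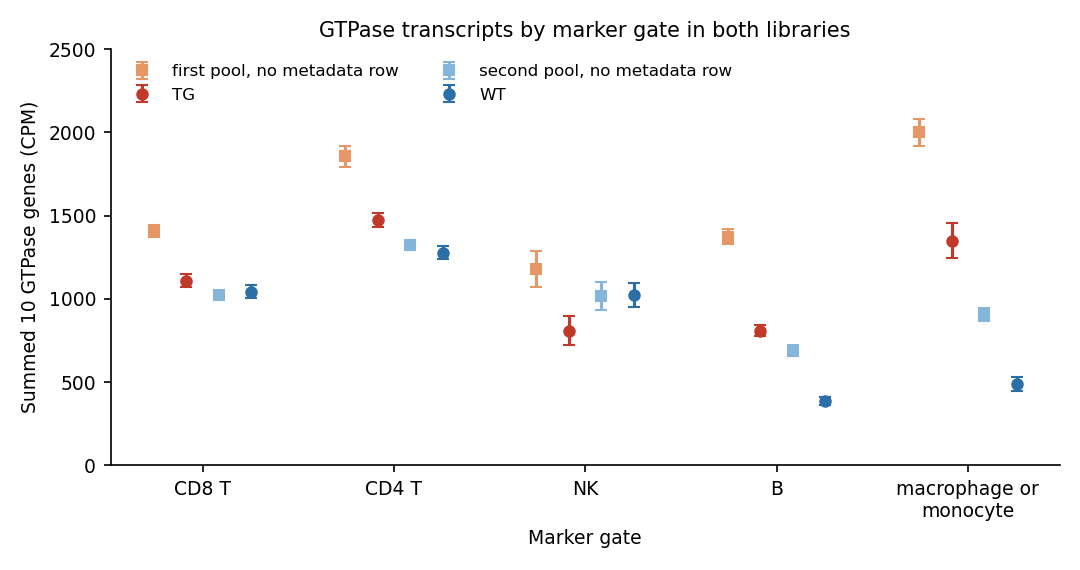
Level of the 10 GTPase genes together (CPM, linear axis from 0) in 5 marker gates for the cells without a row (squares) and the named cells (circles) of the first (red) and second (blue) pool, with exact Poisson 95% intervals as bars. In the B gate and in the macrophage or monocyte gate the 4 groups stand apart. In the B gate they run from 386 CPM in WT to 1374 CPM in the first pool without a row.

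In the first pool the sum was higher in cells without a row than in TG cells in all 5 gates. In B cells it was 1374 CPM in 883 cells without a row and 810.1 CPM in 788 TG cells, a log2 ratio of 0.76 (0.69 to 0.84). In macrophages or monocytes it was 2000 and 1348 CPM, with 0.57 (0.45 to 0.69), and in NK cells 1178 and 806 CPM, with 0.55 (0.34 to 0.76). In CD8 T cells it was 1408 and 1109.9 CPM, with 0.34 (0.28 to 0.41), and in CD4 T cells 1857 and 1473 CPM, with 0.33 (0.27 to 0.40). In B cells all 10 members stood higher without a row, with a median of 0.77 against 0.06 over all genes, and Gbp4, Gbp6 and Igtp were past 2-fold, against 2.36% of 9726 genes (and 1.53% lower). Gbp4 stood at 120.2 CPM without a row and 52.1 in TG cells, a log2 ratio of 1.21 (0.92 to 1.504), Gbp6 at 76.6 and 24.7 CPM, with 1.63 (1.23 to 2.06), and Igtp at 126 and 44.9 CPM, with 1.49 (1.18 to 1.80). Gbp7 differed least, at 241 and 197 CPM, with 0.29 (0.12 to 0.46). In the NK gate 4 of 9 members were past 2-fold higher and 1 lower, against 4.89% and 2.68% of 5750 genes, on 93 and 104 cells. In macrophages or monocytes Gbp6 was past 2-fold, against 5.65% of 7871 genes (and 4.17% lower). In the T cell gates none was, against 2.83% of genes higher and 1.14% lower for CD8 T and 2.7% and 2.06% for CD4 T cells. The medians of the members were 0.38 and 0.41, and those of all genes 0.07 and -0.0040. The interval spanned 0 for Gbp3, Gbp5 and Irgm1 in CD8 T and for Gbp5 and Gbp7 in CD4 T cells.

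In the second pool the difference was found in B cells and in macrophages or monocytes. In B cells the sum was 687 CPM in 900 cells without a row and 386 CPM in 1252 WT cells, a log2 ratio of 0.83 (0.72 to 0.94). All 10 members stood higher without a row, with a median of 0.93 against -0.05 over all genes, and Gbp5, Gbp6, Igtp and Irgm2 were past 2-fold, against 3.2% of 9702 genes (and 1.96% lower). Igtp stood at 52.3 CPM without a row and 22.2 in WT cells, a log2 ratio of 1.23 (0.80 to 1.68), Irgm2 at 28.0 and 12.4 CPM, and Gbp6 at 20.3 and 6.54 CPM. In macrophages or monocytes the sum was 905 and 487 CPM, with a log2 ratio of 0.90 (0.76 to 1.03). Of the 10 members 5 were past 2-fold there, against 6.88% of 9591 genes (and 5.34% lower), with Gbp2 at 208 and 62.0 CPM (1.74, 1.38 to 2.13) and Igtp at 75.7 and 22.8 CPM (1.73, 1.12 to 2.40). Of the WT cells in this gate 34.7% were plasmacytoid dendritic cells by name, and their marker Siglech stood at 1643 CPM in WT cells and 311 CPM in those without a row. Without cells that hold a Siglech UMI the log2 ratio was 0.74 (0.58 to 0.90). In CD8 T cells the sum was 1025 and 1043 CPM, with -0.02 (-0.08 to 0.03), in CD4 T cells 1324 and 1277 CPM, with 0.05 (-0.00 to 0.11), and in NK cells 1014 and 1022 CPM, with -0.01 (-0.17 to 0.15). With each cell thinned to 1000 UMIs it was 0.10 in CD8 T and 0.14 in CD4 T cells. No member was past 2-fold in these 3 gates, where 5.26%, 7.25% and 2.04% of genes were higher and 5.69%, 4.32% and 4.29% lower. The near-equal sums in T cells held members that went both ways. In the CD8 T gate, of 7674 cells without a row and 857 WT cells, Igtp stood at 60.9 and 100.3 CPM, a log2 ratio of -0.72 (-0.90 to -0.53), and Irgm2 at 30.9 and 45.8 CPM, with -0.57 (-0.84 to -0.29). Gbp3 stood at 31.7 and 22.7 CPM there, with 0.48 (0.11 to 0.87), and Gbp7 at 254 and 222 CPM, with 0.20 (0.08 to 0.32). In the CD4 T gate Igtp was again lower without a row, at 94.6 and 157 CPM, with -0.73 (-0.91 to -0.55), and Gbp3 higher, at 55.5 and 34.96 CPM, with 0.67 (0.35 to 0.99). Of the named WT cells, 57.7% in the CD4 T gate and 16.5% in the CD8 T gate were NKT by name. By name, Igtp stood at 178 CPM in WT NKT, 112 in CD4 T and 86.5 in CD8ab T cells. The mix of the cells without a row is unknown, and its part in these ratios was not tested.

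Set side by side, the B gate gave 1374 CPM in the first pool without a row, 810.1 in TG, 687 in the second pool without a row and 386 in WT cells, with intervals that do not meet. After thinning, 18.9% (16.4 to 21.7), 8.12% (6.31 to 10.2), 6.89% (5.32 to 8.74) and 1.68% (1.04 to 2.55) of these cells held at least 3 GTPase UMIs. Here the intervals of TG cells and of the second pool without a row meet. The macrophage or monocyte gate, with the mix given above, had the same order, at 2000, 1348, 905 and 487 CPM. Its intervals do not meet either. The T cell gates gave a narrower range, from 1025 to 1408 CPM in CD8 T cells. Tgfbr2, the mouse gene of the TGF-β receptor, stood at 145 CPM without a row and 289.9 CPM in TG cells of the CD8 T gate. The transgene is human and reads were mapped to the mouse genome. Whether transgene reads were counted as Tgfbr2 was not tested. Il2ra, deleted in P40-/-IL-2Ra-/- mice, stood at 3.64 CPM without a row and 31.7 CPM in WT cells of the CD8 T gate. Cells without a row still stand for no genotype.

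The genes of the interferon-gamma pathway were read beside the members. Irf1 stood at 1326 CPM in TG and 482 in WT cells named monocyte. Ifng, the ligand, was highest in NKT, NK and CD8aa T cells, at 263, 286 and 257 CPM in TG and 354, 285 and 291 in WT, and over all cells it reached 132 CPM in TG and 162 in WT. In CD4 T cells it stood at 155 CPM in TG and 71.9 in WT. NKT cells made up an unlike share of each genotype, as given above. The part of this in the Ifng level over all cells was not tested. In cells named monocyte the receptor genes stood at 114 CPM in TG and 138 in WT (Ifngr1) and at 164 and 91.8 CPM (Ifngr2), and the kinase genes at 388 and 427 CPM (Jak1) and 102 and 101 CPM (Jak2). Socs1, which encodes a feedback inhibitor, stood at 154 CPM in TG and 120.5 in WT NKT cells and at 40.1 and 36.4 CPM in cells named monocyte. In the B gate Ifng stood at 12.3 CPM in the first pool without a row, 10.9 in TG, 4.86 in the second pool without a row and 6.86 in WT cells.

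Among 10 other targets of interferon gamma, 3 of the 9 with at least 20 UMIs were past 2-fold higher in TG cells named monocyte, against 4.73% of all genes. In mature B cells 2 of 9 were (1.84%), and in macrophages 2 of 10 were higher (4.52%) and 1 lower (4.44%). In NKT (4.22%), CD4 T (5.53%) and immature B cells (2.68%) 1 was higher, in NK cells 1 was higher (3.81%) and 1 lower (4.24%), and in CD8ab and CD8aa T cells none was past 2-fold. Psmb9, an immunoproteasome subunit, was higher in TG in all 9 cell types, with log2 ratios from 0.85 to 1.76, while the sum of the GTPase genes was not higher in NK cells. Cd274, which encodes PD-L1, stood at 318 CPM in TG and 70.8 in WT cells named monocyte, and Nlrc5, the transactivator of MHC class I genes, at 102 and 50.4 CPM in mature B cells. The chemokine genes Cxcl9 and Cxcl10 went the other way in macrophages, at 83.3 and 141 CPM and at 57.2 and 216 CPM. Of 8 other GTPase relatives 7 were in the filtered table, and of those with at least 20 UMIs 3 of 5 were past 2-fold higher in mature B (1.84% of all genes) and 2 of 5 in CD4 T cells (5.53%). In immature B cells 1 of 2 was higher (2.68%), and in macrophages 1 of 4 was higher (4.52%) and 1 lower (4.44%). In cells named monocyte none was higher and 1 of 2 was lower (4.95%), in CD8ab T cells none was higher and 1 of 6 lower (3%), and in NKT, NK and CD8aa T cells none was past 2-fold. Gbp2b, a relative of Gbp2, stood at 270.1 CPM in TG and 45.2 in WT immature B cells. In the B gate of the first pool, whose named cells were mostly mature B, it stood at 9.30 CPM without a row and 46.8 in TG cells. The 2 comparisons cover different cells. Of 9 type I interferon genes, 3 of 7 with at least 20 UMIs were past 2-fold higher in TG cells named monocyte (4.73% of all genes) and 3 of 9 in macrophages (4.52%), with medians of 0.72 in both, and 2 of 9 in mature B cells (1.84%). In CD4 T (5.53%) and CD8aa T cells (4.86%) 1 was higher, in CD8ab T cells 1 was higher (3.92%) and 1 lower (3%), in NK cells 1 was lower (4.24%), and in NKT and immature B cells none was past 2-fold. In the B gate of the first pool their median was -0.30, where that of the 10 members was 0.77, while in the B gate of the second pool the medians were 0.60 and 0.93. In a ranking of 9687 genes over the 21 profiles, 8 genes outside the 10 members followed their sum most closely. They were Srrd, Parp14 and Dtx3l (Spearman rho 0.83 each), Tap2 (0.81), Brf2 and Rnf114 (0.80), Il15ra (0.79) and Alkbh4 (0.78). Srrd, Brf2, Il15ra and Alkbh4 rested on only 558, 348, 670 and 715 UMIs over the profiles. Parp14, Dtx3l, Tap2 and Rnf114 had 3636 to 6302. Of the members, Gbp7 (0.87) and Ifi47 (0.82), which held most UMIs, followed the sum most closely. The others ran from 0.38 (Gbp3) to 0.74 (Igtp), so the ranking says little on likeness to those. Parp14, Dtx3l, Tap2 and Il15ra are known interferon-induced genes, and the share of such genes among all ranked genes was not counted. For Socs1, Ifng and Irf1 the correlation with the sum was 0.64, 0.52 and 0.10.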

How the data were processed

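UMI counts were deposited by the authors per cell and gene, for all called cells of both libraries and, filtered, for 11929 cells and 13528 genes. Per the labels and methods they came from the BD Rhapsody pipeline with STAR on mm10. The filter on cells is not given in the sources used here. Genotype, cell type and cluster came from the deposited cell metadata. The members and lists were chosen with earlier results of these data known. The text names all 10 members, list genes with a known role, and the 8 genes outside the members most alike to the sum by Spearman rho.

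Counts were summed per group of cells. CPM got exact Poisson intervals, log2 ratios with exact conditional binomial intervals and shares Clopper-Pearson intervals. Genes with at least 20 UMIs over both profiles were read for a 2-fold difference, with 0.5 UMI added. No p-value was made, since each genotype is 1 library. Member counts in the filtered table and library files differed in 0 values. Doublets were not called, and 280 TG and 248 WT cells held UMIs of B as well as T lineage genes. These were kept, and left out in an alternative. Other alternatives were TMM scaling (edgeR 4.0.16, R 4.3.3), other totals, equal weight per cell, thinning, a stricter gate and single clusters. The ratio calculation was tested on simulated data. Positions came from GENCODE M21 and promoters from RefSeq. Python 3.11.15, numpy 2.4.6, scipy 1.17.1 and pandas 2.3.3 were used. Antibody counts and normalized tables were not used. Some results of a pathway list are not reported here.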

Additional observations from a re-analysis of the deposited data

Results flagged for a closer look

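The log2 ratio of TG over WT went opposite ways between cell types for the sum and for 4 members, each with an interval that excluded 0 on both sides. With 1 library per genotype none of these differences was tested. For the sum of the 10 genes it was 2.06 in cells named monocyte and -0.10 in NK cells, where the interval spanned 0 under TMM scaling and without Gbp4, Irgm2 or Ifi47. For Gbp4 it was 1.42 in macrophages and -0.71 in NK cells. For Gbp6 it was 1.17 in CD8aa T cells, on 12 UMIs in WT, and -0.77 in CD8ab T cells. For Igtp it was 2.00 in cells named monocyte and -0.24 in CD8ab T cells. For Irgm2 it was 1.49 in cells named monocyte and -0.98 in NK cells. Cd3e stood at 1158 CPM in the TG and 97.8 in the WT cells named NK, and the part of that mixture in these values was not tested.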

How the results depend on the processing

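No paired analysis was possible because each genotype is 1 library, so no replicate was left out either. Intervals cover counting error only, so the spread between mice is unknown. Depth limits Gbp3, Gbp5 and Gbp6 most, with under 20 UMIs in WT cells of at least 2 of the 9 cell types. Of the alternatives, 179 left a value within the 95% interval of its ratio, or a count within 1.5 times. The others follow, and the causes of the shifts were not tested.

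Single clusters and a gate without Siglech cells were added after seeing the data. In CD8ab T cells the log2 ratio of the sum turned to -0.077 in cluster 4 and -0.12 in cluster 12, and was 0.26 in cluster 7 and 0.37 in cluster 13. It was 0.39 in NKT cluster 0, 1.16 in mature B cluster 1, 0.83 in macrophage cluster 15, 1.01 in CD4 T cluster 6, 0.45 in CD4 T cluster 9 and -0.22 in NK cluster 8. Members past 2-fold higher numbered 1 of 10 in cluster 0 (4.11% of all genes), 6 in cluster 1 (2.2%), 1 in cluster 13 (4.25%), 3 in cluster 15 (4.54%), 1 in cluster 3 (4.31%), 2 in cluster 4 (3.92%), 5 in cluster 6 (6.58%) and 0 in cluster 9 (3.64%). In cluster 12 the 1 member past it was lower (4.10%). Without Siglech cells the gate of macrophages or monocytes of the second pool gave 0.74, with at least 4 lineage UMIs 0.65 and without the 3 cells with most member UMIs 1.11.

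With equal weight for each cell the log2 ratio was 0.98 in mature B cells, 2.26 in cells named monocyte and 0.24 over all cells, and the WT range from the highest to the lowest type was 2.06. In the gates it was 0.88 (B) and 0.46 (CD4 T) in the first pool, and 1.05 (B), 0.13 (CD4 T), 0.092 (CD8 T) and 1.22 (macrophage or monocyte) in the second. Thinned to 1000 UMIs it was 0.96 in mature B cells and 2.33 in cells named monocyte. In the gates it was then 0.85 (B), 0.43 (CD4 T) and 0.42 (macrophage or monocyte) in the first pool, and 1.06, 0.14 and 1.23 for the same gates and 0.10 for CD8 T in the second. TMM scaling gave 0.62 in CD4 T cells and 0.082 in CD8 T cells of the second pool, with 0 members past 2-fold in CD4 T and 2 in immature B cells. Without cells holding both B and T lineage UMIs the ratio was 1.14 in mature B cells. Totals without ribosomal protein and mitochondrial genes gave -0.0092 in CD4 T cells of the second pool, and macrophages in place of mature B cells as the lowest WT type.

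Leaving 1 member out of the sum gave lowest values of 0.071 in CD8ab T, 0.63 in immature B, 1.75 in cells named monocyte, 0.15 over all cells, and -0.035 (CD4 T), -0.10 (CD8 T) and 0.72 (macrophage or monocyte) in the second pool. Its highest values were 0.26 over all cells, 0.89 (B), 0.42 (CD4 T) and 0.82 (NK) in the first pool, and 0.14 (CD4 T), 0.034 (CD8 T) and 1.13 (macrophage or monocyte) in the second.

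At a fold of 1.5 the members past it (with the share of all genes in that direction) were 8 higher in CD4 T (16.8%), 5 in immature B (9.39%), 8 in mature B (5.90%) and 1 in NKT cells (10.8%). The 2 in NK cells were lower (11.5%), and of the 2 in CD8ab T cells 1 was higher (10.95%) and 1 lower (8.30%). In the first pool 8 were higher in B (8.10%), 2 in CD4 T (7.56%), 1 in CD8 T (7.84%) and 5 in macrophages or monocytes (13.3%). In the second, 9 were higher in B (7.77%) and 8 in macrophages or monocytes (15.02%), the 2 in NK (13.3%) and 1 in CD8 T cells (11.9%) were lower, and of the 2 in CD4 T cells 1 was higher (13.8%) and 1 lower (9.69%).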

Other observations

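The median log2 ratio of 9 genes induced mainly by type I interferon, cells without a row over named cells, went the same way as that of the GTPase genes in some gates and the opposite way in others. In macrophages or monocytes of the first pool 3 of 9 such genes were at least 2-fold lower without a row, against 4.17% of all genes, and the median was -0.53, where that of the GTPase genes was 0.55. In the first pool it was also below 0 in B (-0.30 against 0.77) and CD8 T cells (-0.24 against 0.38). In CD4 T cells of that pool 3 of 9 were higher, against 2.7% of all genes, with medians of 0.62 and 0.41, and in NK cells 1 of 2 was higher (4.89%), with 0.95 and 0.75.

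In the second pool both medians were above 0 in B cells (0.60 for the type I genes and 0.93 for the GTPase genes, 1 of 8 type I genes higher, against 3.2% of all genes), in macrophages or monocytes (0.78 and 0.99, 3 of 9 higher, against 6.88%) and in NK cells (1.37 and 0.02, 3 of 5 higher, against 2.04%). In CD4 T cells 3 of 9 were lower, against 4.32% of all genes, with medians of -0.35 and 0.04. In CD8 T cells both were below 0 (-0.08 and -0.12), close to the median of all genes in that gate (-0.07).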
